A study of Mus musculus with 10 samples.

Results

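Integrins, selectins and their partners on the cell surface were followed in haematopoietic stem cells (HSCs) of adult mice in which the transcription factor Sox17 can be induced, set against HSCs of wild-type littermates. The family was given as a list of 29 genes: 24 integrin subunits, the selectins Selp and Sele, the selectin ligand Selplg, the hyaluronan receptor Cd44 and the integrin ligand Vcam1. A gene was represented by the array probe set that names it alone, and by the brightest of these, in mean over all 10 arrays, where there were several. By this rule 28 of the 29 genes were measured, out of 19938 genes with such a probe set. Selp has no listed probe set and was not analysed here. The platelet integrin genes Itga2b and Itgb3 are outside the list and are given beside it.

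Integrins are paired receptors of 1 alpha and 1 beta chain that hold cells to matrix proteins or to other cells, and their grip is switched on from inside the cell by talin and kindlin. Selectins are lectins of vessel walls, platelets and leukocytes that slow passing blood cells by binding sialylated and fucosylated glycans. In bone marrow the alpha4 beta1 integrin, which binds Vcam1 and fibronectin, and the selectin ligand Selplg help HSCs to enter the marrow and stay there. Blocking alpha4 releases stem and progenitor cells into the blood.

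Transgenic HSCs came from Sox17-transgenic mice, which carry (tetO)7CMVSox17-IRES-NucEGFP together with Gt(ROSA)26Sortm1(rtTA*M2)Jae, a tetracycline-controlled activator at the Rosa26 locus that is not restricted to blood cells. Wild-type HSCs came from littermates labelled wild type. Mice of both groups were 8 weeks old and had received 2 mg/ml doxycycline in their drinking water for 5 days. From each group, 5 aliquots of 10000 CD150+CD48-Lineage-Sca1+cKit+ cells were sorted and hybridised to 1 array each. The labels call the aliquots independent without tying them to single animals, so a p-value reflects only sample-to-sample spread, part of which may be technical.

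Several facts of the arrays bear on all that follows. All values are log2 expression values after robust multi-array averaging, and a difference is transgenic minus wild type on that scale. The Sox17 probe set did not separate the groups, with 4.37 ± 0.13 in transgenic and 4.21 ± 0.13 in wild-type HSCs (SD, n = 5 each, limma adjusted p = 0.855), so every direction rests on the arrays' labels. That probe set lay at the 23.2 percentile of signal, and whether its probes cover the transgene transcript was not tested, so its values do not show whether Sox17 was induced. After subtraction of the group means, 40.1% of the variance lay along 1 principal component. It parted transgenic arrays 1 to 3 and wild-type arrays 1 and 2 (set A) from transgenic arrays 4 and 5 and wild-type arrays 3 to 5 (set B), and these sets were defined from the data. Transgenic array 4 alone read as male (Xist 4.32, against 10.80 to 11.40 on the other transgenic arrays). All 11 measured HSC markers were above the median signal of the tested probe sets in mean, Kit, Hlf and Meis1 among them, whereas the B cell genes Cd79a and Ms4a1 and the T cell gene Cd3g averaged 3.1 to 3.4 in both groups. Transgenic array 5 stood apart in myeloid genes, as given with Vcam1.

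No gene of the family passed the threshold of 0.05 on the adjusted p. In limma, 0 of 28 were called, where 0.141% of all 23410 tested probe sets were. The smallest adjusted p was 0.426, for Itga2, and the next was 0.653. An unadjusted p under 0.05 was found for 3 of 28 (10.7%), against 6.59% of all probe sets. They were Itga2 and Selplg, with higher means on the transgenic arrays, and Itgal, with a lower one. The arrays of the groups overlapped for all 28 genes, while 1.47% of all probe sets showed no overlap.

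The differences of the family were small. They ran from -0.32 for Itgal to 0.71 for Itga2, and 21 of 28 were smaller than 0.2 in size. The median difference was 0.05, against -0.01 over all probe sets, and 21 of 28 (75%) were positive against 46.3% of all probe sets. These signs were the same after quantile normalization and after centring each array on its median. The 95% confidence intervals had half-widths of 0.17 to 0.65, and in 27 of 28 genes the interval lay wholly within 1 log2 unit on either side of 0. The exception was Itga2, whose interval reached 1.19. In bulk RNA, fewer cells that carry a transcript and less of it per cell cannot be told apart.

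**Figure D1:**
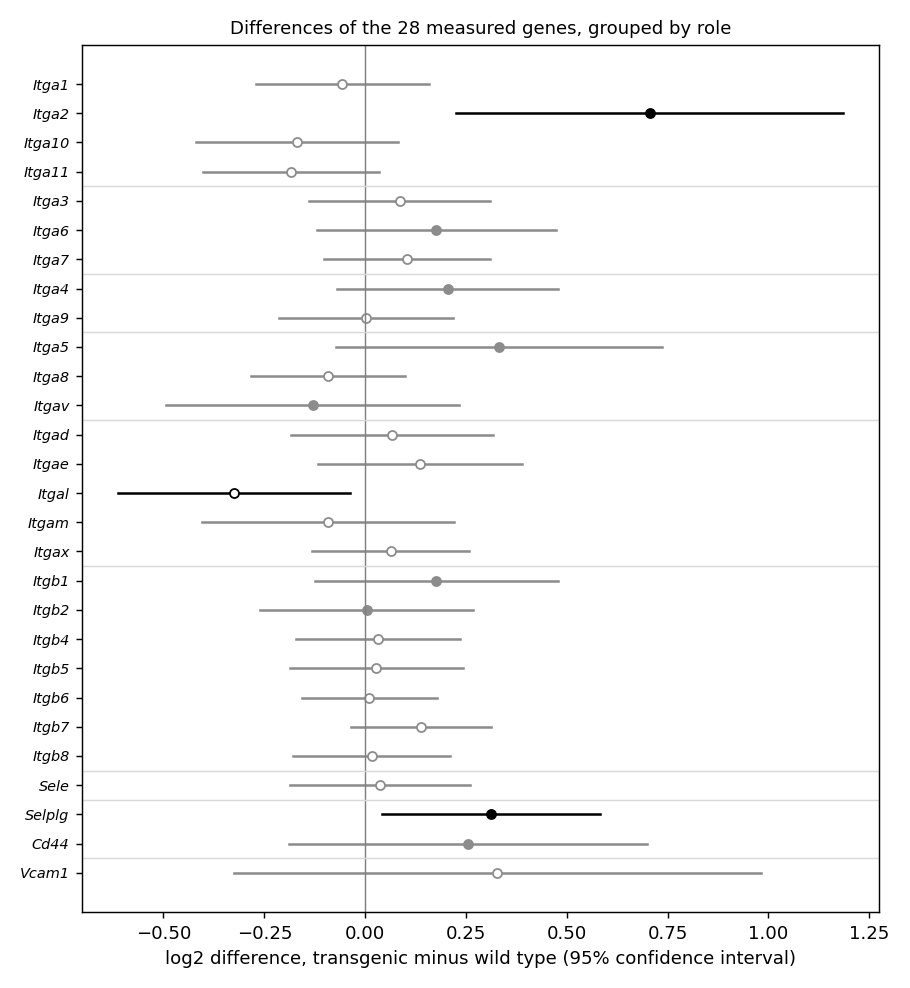
Log2 difference, transgenic minus wild type, of the 28 measured genes (points) with 95% confidence intervals from limma (bars), grouped by role from top to bottom as described in the text. Filled points mark genes at or above the median signal of all tested probe sets, open points those under it, and black marks the 3 genes with an unadjusted p under 0.05. Itga2 lies farthest from 0, at 0.71, and most intervals cross 0.

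Signal also differed within the family. Probe sets bind with unequal strength, so their levels do not rank transcripts, but a probe set near the array's floor can hide a change. Of the 28 genes, 19 had a mean under the median probe set and 4 lay under the 25th percentile: Itga1, Itga8, Itgb6 and Itgax. The 9 brighter genes were Itga2, Itga4, Itga5, Itga6, Itgav, Itgb1, Itgb2, Selplg and Cd44. Of these 9, 8 had a positive difference, with a median of 0.20, while 49.5% of all probe sets brighter than the median had one, with a median of -0.0020. The 19 dimmer genes had a median difference of 0.03, and 13 of them had a positive one. Of all probe sets not brighter than the median, 43% had a positive difference, with a median over all of them of -0.017. The spread between arrays of 1 group, pooled over both groups, had a median SD of 0.18 for the family and 0.19 for all probe sets. It was lowest for Itgb6 (0.09) and highest for Vcam1 (0.54), Itga2 (0.39) and Cd44 (0.36).

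The alpha chains that pair with beta1 to bind collagen came first in size of difference through 1 of their 4 members. Itga2, also known as CD49b, is the alpha chain of the alpha2 beta1 collagen receptor, found on platelets and many natural killer cells; in the mouse, its surface level also separates HSC fractions that repopulate for longer and shorter times. Its probe set, 10412267, read 6.62, 7.63, 6.95, 6.52 and 6.75 on the transgenic arrays, against 6.22, 6.16, 5.69, 6.22 and 6.63 on the wild-type arrays. Transgenic array 2 was the highest and wild-type array 3 the lowest, and the groups overlapped only in that wild-type array 5 lay above transgenic arrays 1 and 4. The means were 6.89 ± 0.44 in transgenic and 6.19 ± 0.33 in wild-type HSCs (SD, n = 5 each). The difference of 0.71 (SE 0.22, interval 0.23 to 1.19), a 1.63-fold ratio, did not pass (limma adjusted p = 0.426). It was 0.52 without transgenic array 2. Set A alone gave 0.87 and set B alone 0.45. Of 10 measured megakaryocyte and platelet markers, 9 had negative differences, and the part of such transcripts in the value of Itga2 was not tested.

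Since Sox17 is a DNA-binding factor, the RefSeq window before the start of Itga2 is shown for the gene with the largest difference. It covers 250 bases at chr13:114932101-114932350 of build GRCm38.p6, minus strand, just upstream of the annotated start, and ends at it. Of the 3 genes with an unadjusted p under 0.05, 1 had an entry in the RefSeq promoter table used here. The window was searched on both strands for the letters AACAAA or AACAAT and TACAAA or TACAAT, spellings of the core that SOX factors bind, which can overlap one another. It held 0 matches, so no base is in capitals, and 35.0% of all 32851 windows of this length in the table held at least 1. The count says only that these letters are not in this window.
Itga2: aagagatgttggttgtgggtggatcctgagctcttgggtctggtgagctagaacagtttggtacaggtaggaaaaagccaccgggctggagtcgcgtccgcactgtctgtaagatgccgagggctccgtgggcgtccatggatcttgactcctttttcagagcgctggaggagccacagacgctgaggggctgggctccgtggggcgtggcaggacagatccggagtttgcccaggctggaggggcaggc

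The other collagen-binding alpha chains had differences near 0 or below it. Itga1, the neighbour of Itga2 in the genome, averaged 3.61 ± 0.15 in transgenic and 3.67 ± 0.14 in wild-type HSCs (difference -0.06, limma adjusted p = 0.977). It lay under the 25th percentile of signal, and all 10 arrays read between 3.38 and 3.85. Itga10, known from cartilage, averaged 5.50 ± 0.04 in transgenic and 5.67 ± 0.26 in wild-type HSCs (SD, n = 5 each; -0.17, limma adjusted p = 0.905). Itga11, a receptor of fibroblasts, averaged 4.89 ± 0.09 in transgenic and 5.07 ± 0.19 in wild-type HSCs (SD, n = 5 each; -0.18, limma adjusted p = 0.839). Among the wild-type arrays, array 4 had the highest value for both, 6.06 and 5.38. Without it the difference was -0.070 for Itga10 and -0.11 for Itga11.

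The laminin-binding chains had positive differences in 3 of 3 genes, of 0.09 to 0.18, with adjusted p of 0.928 to 0.957. Itga6, or CD49f, binds laminin with beta1 or beta4 and marks human HSCs. It read 8.59, 8.42, 8.59, 8.63 and 8.61 on the transgenic arrays, against 8.48, 8.26, 8.86, 8.03 and 8.32 on the wild-type arrays. The transgenic arrays lay close together inside the range of the wild-type arrays. The difference was 0.18 (SE 0.14, limma adjusted p = 0.928). It was 0.29 without wild-type array 3 and 0.087 without wild-type array 4. Itga3 and Itga7, known from epithelia and from muscle, differed by 0.09 and 0.10, and the difference of Itga7 was 0.044 without transgenic array 5 and 0.16 without transgenic array 2.

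The alpha4 chain, as said above, helps HSCs to enter the marrow and stay there. Itga4 read 9.15, 9.07, 9.50, 9.68 and 9.42 on the transgenic arrays, against 9.24, 9.17, 9.34, 8.97 and 9.07 on the wild-type arrays. Transgenic arrays 3 to 5 lay above all wild-type arrays, and arrays 1 and 2 lay among them. The difference of 0.20 (SE 0.12, interval -0.07 to 0.48) did not pass (limma adjusted p = 0.888). It was 0.13 without transgenic array 4. Set A alone gave 0.04 and set B alone 0.42. Itga9, a related chain that also binds Vcam1, averaged 5.41 ± 0.10 in transgenic and 5.40 ± 0.18 in wild-type HSCs (SD, n = 5 each; difference 0.00).

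Of the chains that bind the RGD sequence of fibronectin and vitronectin, Itga5 differed by 0.33 and the others by less. Itga5, whose product is the main fibronectin receptor with beta1, read 6.85, 6.59, 6.71, 6.63 and 6.26 on the transgenic arrays, against 6.55, 6.48, 6.42, 5.56 and 6.35 on the wild-type arrays. Transgenic arrays 1 to 4 lay above all wild-type arrays, and wild-type array 4 was far below the rest. The difference of 0.33 (SE 0.18, limma adjusted p = 0.846) was 0.16 without wild-type array 4. Itgav, the alpha chain of the vitronectin receptors, averaged 6.61 ± 0.28 in transgenic and 6.74 ± 0.29 in wild-type HSCs (SD, n = 5 each; -0.13, limma adjusted p = 0.958). The difference of Itgav was -0.0068 without transgenic array 5, and -0.21 to -0.043 when 1 of the wild-type arrays was left out. Itga8, a chain of smooth muscle and kidney mesenchyme, stayed under the 25th percentile of signal at 3.43 to 3.89 on all arrays.

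**Figure D2:**
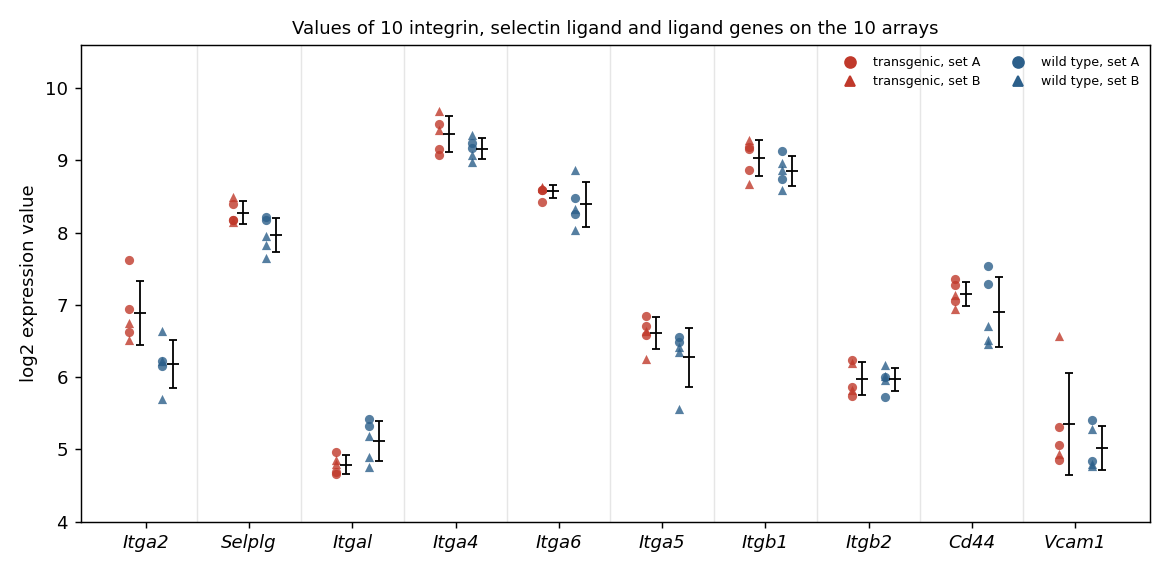
Log2 expression values (vertical axis) of 10 genes on each of the 10 arrays, transgenic (red) left of wild type (blue), with circles for set A and triangles for set B. Black marks give the mean and SD of 5 arrays. The groups overlap for every gene shown, wild-type arrays 1 and 2 lie above the other wild-type arrays for Cd44, and transgenic array 5 lies above all others for Vcam1.

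The 5 alpha chains grouped as leukocyte chains, Itgal, Itgad, Itgae, Itgam and Itgax, all had a signal under the median. Itgb2, the beta chain of all of them but Itgae, lay at the 53.1 percentile. Itgal, the alpha chain of LFA-1, through which leukocytes bind ICAM proteins, had the largest negative difference of the family. It read 4.68, 4.97, 4.65, 4.80 and 4.85 on the transgenic arrays, against 5.41, 5.32, 4.75, 5.19 and 4.90 on the wild-type arrays. Wild-type arrays 1, 2 and 4 lay above all transgenic arrays, and wild-type arrays 3 and 5 lay within their range. The means were 4.79 ± 0.13 in transgenic and 5.11 ± 0.28 in wild-type HSCs (SD, n = 5 each; difference -0.32, SE 0.13, interval -0.61 to -0.04, limma adjusted p = 0.680). It was -0.60 in set A but -0.12 in set B, and its probe set, 10557591, had a signal at the 34.6 percentile of those tested. The other alpha chains of this kind, Itgad, Itgae, Itgam and Itgax, differed by -0.09 to 0.14, with adjusted p of 0.934 to 0.977. The difference of Itgae, 0.14, was 0.034 without transgenic array 4. Itgad, Itgam and Itgax, which lie next to each other in the genome, are chains of macrophages, neutrophils and dendritic cells, and Itgae pairs with beta7 on lymphocytes of epithelia. The second Itgad probe set differed by 0.04, against 0.07 for the brighter one.

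Itgb2, the beta chain that Itgal, Itgam, Itgax and Itgad need, read 6.24, 5.87, 5.74, 6.19 and 5.83 on the transgenic arrays, against 5.72, 6.003, 5.96, 6.01 and 6.16 on the wild-type arrays. The ranges nearly coincided, and the difference was 0.00 (SE 0.12, interval -0.26 to 0.27). The differences of all 7 beta chains were above 0, and the largest was 0.18, with adjusted p of 0.866 to 0.999. Itgb1, the partner of most alpha chains above, read 8.87, 9.16, 9.18, 9.28 and 8.67 on the transgenic arrays, against 9.13, 8.74, 8.96, 8.59 and 8.86 on the wild-type arrays. The groups overlapped widely (difference 0.18, SE 0.14, limma adjusted p = 0.928). Leaving out 1 array gave 0.11 (transgenic array 4 or wild-type array 4) to 0.27 (transgenic array 5). Itgb7, which pairs with alpha4 on gut-homing lymphocytes, averaged 5.59 ± 0.07 in transgenic and 5.45 ± 0.12 in wild-type HSCs (SD, n = 5 each; 0.14, and 0.089 without wild-type array 5). Itgb4, Itgb5, Itgb6 and Itgb8, chains of epithelia and of the RGD-binding receptors, differed by 0.01 to 0.03. Several of these differences change sign when 1 array is left out, as given further on.

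Of Sele, Selplg and Cd44, Selplg had the smallest p, and it did not pass. It encodes PSGL-1, the mucin-like protein that P- and E-selectin bind on blood cells. It read 8.40, 8.17, 8.18, 8.49 and 8.14 on the transgenic arrays, against 8.22, 8.17, 7.65, 7.95 and 7.83 on the wild-type arrays. All transgenic arrays lay above wild-type arrays 3 to 5, and wild-type arrays 1 and 2 lay among the lower transgenic ones. The means were 8.28 ± 0.16 in transgenic and 7.97 ± 0.24 in wild-type HSCs (SD, n = 5 each; difference 0.31, SE 0.12, limma adjusted p = 0.653). It was 0.05 in set A but 0.51 in set B. Sele, the selectin of activated endothelium, read 5.19 to 5.42 in transgenic and 4.94 to 5.43 in wild-type HSCs, with a difference of 0.04. Over the same arrays 14 endothelial markers averaged 6.15 to 6.36 in transgenic and 5.66 to 6.08 in wild-type HSCs. Of these 14, 8 had a positive and 6 a negative difference. Egfl7 was the 1 called higher (limma adjusted p = 0.0260), where 0.141% of all probe sets were called. What part such cells or transcripts had in the values of Sele was not tested.

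Cd44 binds hyaluronan and, in suitably glycosylated forms, selectins. It read 7.36, 7.06, 7.27, 7.14 and 6.94 on the transgenic arrays, against 7.53, 7.28, 6.52, 6.46 and 6.70 on the wild-type arrays. Wild-type array 1 lay above all transgenic arrays, wild-type array 2 lay among them, and wild-type arrays 3 to 5 lay below all of them. The pooled difference of 0.25 (SE 0.20, limma adjusted p = 0.928) thus joined opposite differences, -0.18 within set A and 0.48 within set B. It was 0.41 without wild-type array 1, 0.16 without wild-type array 3 and 0.14 without wild-type array 4.

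Vcam1, the ligand of alpha4 beta1, is made in marrow by endothelium, stroma and macrophages. It read 4.85, 5.31, 5.06, 4.94 and 6.57 on the transgenic arrays, against 5.40, 4.84, 5.28, 4.77 and 4.79 on the wild-type arrays. Transgenic array 5 was far above the rest, and the other transgenic arrays lay within the range of the wild-type arrays. The difference was 0.33 with that array (SE 0.30, limma adjusted p = 0.943) and 0.02 without it. On the same array the myeloid list was highest too. The mean of its 16 measured genes was 6.18 on transgenic array 5, with 5.26 to 5.64 for transgenic arrays 1 to 4, against 5.12 to 5.31 on the wild-type arrays. Mpo, the myeloperoxidase of granulocyte precursors, read 8.63 on transgenic array 5, with 5.41 to 6.93 for transgenic arrays 1 to 4, against 5.63 to 6.07 on the wild-type arrays. The neutrophil protein gene S100a8 read 7.92 there, with 4.39 to 5.97 for transgenic arrays 1 to 4, against 3.81 to 5.00 on the wild-type arrays. The macrophage gene Adgre1, 1 of 3 genes of the list under the 25th percentile of signal, read 3.57 on transgenic array 5. It does not stand for the list's other macrophage genes, such as Cd68 and C1qb, which are plotted below. The mean of 9 stromal markers was 4.64 to 4.83 in transgenic and 4.55 to 4.80 in wild-type HSCs. The part of any of these cells in the value of Vcam1 was not tested.

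**Figure D3:**
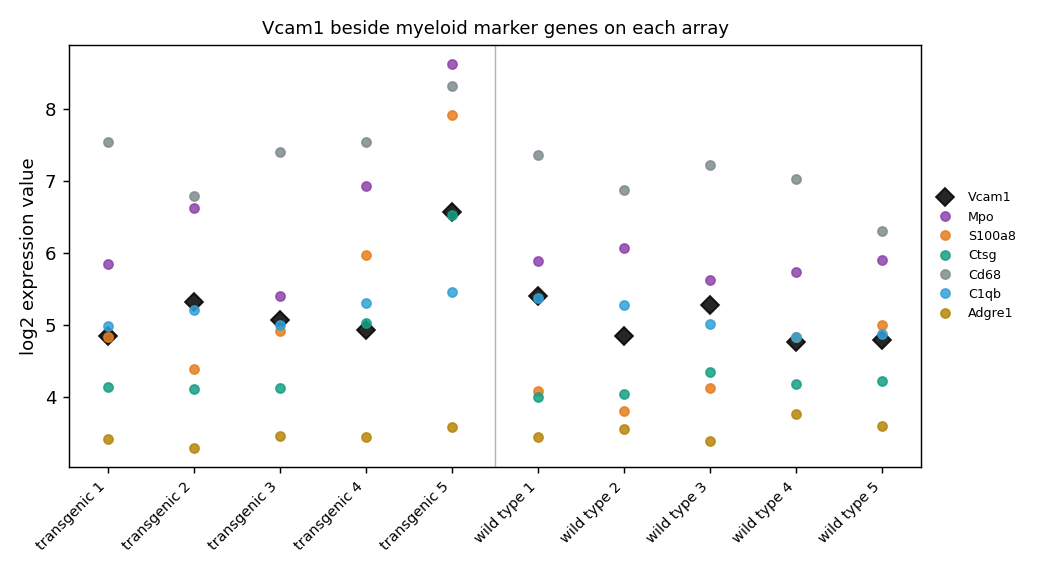
Log2 expression values (vertical axis) of Vcam1 (black diamonds) and 6 myeloid marker genes (coloured circles) on each array, transgenic arrays on the left and wild-type arrays on the right. Vcam1, Mpo, S100a8 and Ctsg are highest on transgenic array 5, while Adgre1 stays between 3.29 and 3.76 on all arrays.

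Differences were also read within each array set. They had the same sign in both sets in 14 of 28 genes and opposite signs in 14. With the set as a block, 0 of 28 were called, where 0.389% of all probe sets were, and 3 of 28 (10.7%) had an unadjusted p under 0.05, against 8.34% of all probe sets. They were again Itga2 (0.66, limma adjusted p = 0.335), Itgal (-0.36, 0.381) and Selplg (0.28, 0.542). Whether a difference itself differed between the sets was tested by an interaction of group and set in limma, chosen after seeing the data. It called 0 of 28, and 0% of all probe sets. Its unadjusted p was under 0.05 for 4 of 28 (14.3%), against 3.96% of all probe sets. These 4 were Cd44, Itga9, Itgal and Selplg, and all had an adjusted p of 1.00. The sets were drawn from these same values, so the interaction is a description of them.

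**Figure D4:**
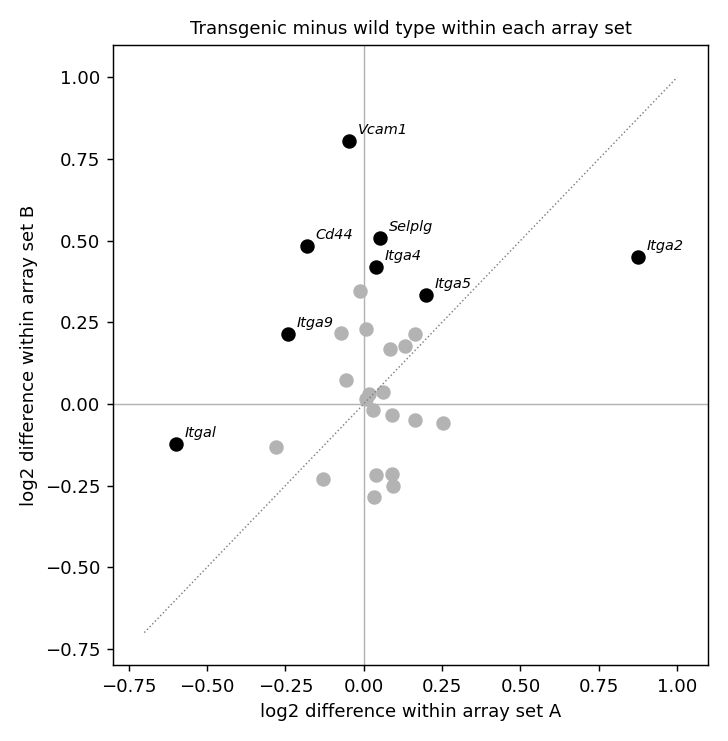
Log2 difference, transgenic minus wild type, within array set A (horizontal axis, 3 against 2 arrays) and within set B (vertical axis, 2 against 3 arrays) for the 28 genes, with the line of equal differences dotted. Itga2 is positive in both sets and Itgal negative in both, while Cd44 and Itga9 are negative in set A and positive in set B.

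Other genes of the pathway were read from 5 lists of 117 genes, of which 112 had a probe set of their own and 0 passed (limma). An unadjusted p under 0.05 was found for 14 (12.5%), 8 with a positive and 6 with a negative difference, against the 6.59% given above. The lists and the family were chosen with earlier results of these data known.

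The chains of the platelet fibrinogen receptor had opposite differences. Itga2b, the alpha chain, read 6.29, 6.04, 5.73, 6.78 and 6.65 on the transgenic arrays, against 7.12, 7.07, 6.69, 7.22 and 7.31 on the wild-type arrays. Its groups overlapped only through transgenic array 4 and wild-type array 3 (difference -0.78, SE 0.20, limma adjusted p = 0.245). Itgb3, its beta chain, which also pairs with Itgav, read 6.88, 6.53, 7.12, 8.00 and 7.05 on the transgenic arrays, against 6.52, 6.65, 6.22, 6.52 and 6.67 on the wild-type arrays. Transgenic array 4 was the highest, and array 2 alone fell within the wild-type range (difference 0.60, SE 0.23, adjusted p = 0.600). Set A alone gave 0.26 and set B alone 1.05. Over the 10 measured megakaryocyte and platelet markers, to which both belong, the mean was 5.96 to 6.30 in transgenic and 6.51 to 6.96 in wild-type HSCs. Of these 10, Pf4 was the 1 called, with a lower mean (limma adjusted p = 0.0112), where 0.141% of all probe sets were called. The part of such transcripts in these values was not tested.

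Activators and adaptors inside the cell had a median difference of -0.05, and 16 of 36 were positive. Those with the smallest p were the adaptor Lims1 of the kinase complex at integrin tails (-0.32), the small GTPase Rap1b that activates integrins (-0.34) and the filamin-binding adaptor Fblim1 (0.24), with adjusted p of 0.660 to 0.717. Rap1b averaged 10.4 ± 0.27 in transgenic and 10.8 ± 0.20 in wild-type HSCs (SD, n = 5 each). Integrin ligands had 21 of 36 positive differences and a median of 0.02. They were led by the RGD protein of phagocytosis Mfge8 (0.44, adjusted p = 0.412), the red cell adhesion molecule Icam4 (-0.47, 0.557) and the laminin chain Lama3 (0.57, 0.716). Of these, Lama3 read 5.56 and 6.09 on transgenic arrays 3 and 4, with 4.73 to 4.95 on transgenic arrays 1, 2 and 5, against 4.43 to 4.80 for wild type.

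Carriers and enzymes of selectin ligands had 14 of 24 positive differences and a median of 0.07. Glg1, the E-selectin ligand ESL-1, averaged 8.30 ± 0.25 in transgenic and 7.65 ± 0.43 in wild-type HSCs (SD, n = 5 each; 0.65, SE 0.20, limma adjusted p = 0.404). The sulfotransferase Chst2, which modifies L-selectin ligands, differed by 0.63 (adjusted p = 0.426), and the sialomucin Podxl by 0.47 (0.627). All 3 had a positive difference within each array set. Genes of hyaluronan synthesis, binding and of the linkers below Cd44 had 6 of 14 positive differences and a median of -0.02. The linker ezrin, Ezr, read 7.09, 6.89, 7.06, 6.83 and 6.78 on the transgenic arrays, against 7.28, 7.22, 7.16, 7.42 and 7.18 on the wild-type arrays. All transgenic arrays lay below all wild-type arrays, which holds for 1.47% of all probe sets in either direction, and the difference of -0.32 (SE 0.09) had an adjusted p of 0.329. The related linker moesin, Msn, differed by 0.13 and the hyaluronan synthase Has2 by 0.14, with adjusted p of 0.857 and 0.928.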

How the data were processed

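The values deposited by the authors are log2 expression, for 35556 probe sets on 10 Affymetrix Mouse Gene 1.0 ST arrays. Per the submitters' processing notes, RMA and the R packages affy and limma were used, in versions not given in the sources used here. Low values are compressed by RMA. Per the labels, RNA was amplified with NuGEN WT-Ovation Pico. The values were used as deposited, with no filter.

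The platform annotation names 1 gene for 21789 probe sets, several for 1621 and none for 12146. The 23410 named probe sets were fitted in limma 3.58.1 (R 4.3.3), transgenic minus wild type, two-sided, Benjamini-Hochberg adjusted across the whole set at 0.05, and the family was read from that fit. Members and gene lists were chosen with earlier results of these data known. All members are named; per-array values are given for those with an unadjusted p under 0.05 and for 9 with known roles in marrow (of which Selp has no probe set), and Itga5 was added after its values were seen. Of each pathway list the 3 smallest p are named, and marker lists are used as values. The limma step was run on simulated data with independent normal noise. Such data lack the shared component that parts the array sets, so the run does not show how limma behaves on these arrays. Array precision is limited by the number of arrays. Alternatives covered normalization, filters, blocks, moderation and left-out arrays.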

Additional observations from a re-analysis of the deposited data

Results flagged for a closer look

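In each group of 5 arrays, the highest or lowest value of a gene was marked when its gap to the nearest other value exceeded 0.71 of the group's range. Chance marks about 1 in 20 groups; here 7 of 56 were marked. On the transgenic arrays these were Vcam1 at 6.57 on array 5 (next 5.31), Itgav at 6.11 on array 5 (next 6.63), Itga10 at 5.57 on array 5 (next 5.49) and Itga6 at 8.42 on array 2 (next 8.59). On the wild-type arrays all 3 were on array 4: Itga5 at 5.56 (next 6.35), Itga8 at 3.89 (next 3.61) and Itgb5 at 5.07 (next 4.76). Transgenic array 5 was also the one highest in myeloid genes. The causes were not tested.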

How the results depend on the processing

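The count of 0 called genes of the family held under all 22 alternatives. The number of called probe sets, 33 in all, was 91 with the array set as a block, 4 within set A and 6 within set B. It was 15 when unnamed probe sets were tested too and 8 with a floor at the 20th percentile. When 1 array was left out, it was 15 (without transgenic array 4) to 71 (without transgenic array 2). The causes of these changes were not tested. Among the brighter probe sets, which hold 9 of the 28 genes, the median difference was 0.20 in place of 0.05. Same-numbered arrays did not all deviate together (correlations of -0.14 to 0.35; 1 of 10 arrays correlated best with their own number), so the numbers were not taken as pairs. With the replicate number as a block the count was 33 again, with 0 of the family called and the same signs in all 28, and Itga2 had an adjusted p of 0.417. Over the alternatives the adjusted p was at least 0.311 for Itga2, 0.346 for Itgal and 0.467 for Selplg. Their differences ran from 0.45 to 0.87, from -0.60 to -0.12 and from 0.05 to 0.51. The unadjusted p of Itga2 stayed at or under 0.0207 when 1 array was left out. It reached 0.0782 for Itgal without wild-type array 1 and 0.0706 for Selplg without transgenic array 4. Within 1 array set, the unadjusted limma p reached 0.138 for Itga2 (set B), 0.484 for Itgal (set B) and 0.677 for Selplg (set A).

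Signs changed within the array sets, with the set as a block, with array weights and when 1 array was left out. Within set A the difference was 0.089 for Itga1, 0.038 for Itga8, -0.24 for Itga9, 0.031 for Itga10, -0.012 for Itgae, 0.093 for Itgam, -0.071 for Itgax, -0.056 for Itgb8, -0.18 for Cd44 and -0.048 for Vcam1. Within set B it was -0.059 for Itga3, -0.050 for Itgad, -0.035 for Itgb2 and -0.019 for Itgb6. With the set as a block it was -0.015 for Itga9, and with array weights -0.052 for Itga9. Leaving out 1 array gave -0.10 to 0.0012 for Itga1, -0.055 to 0.054 for Itga9, -0.0086 to 0.13 for Itgad, -0.19 to 0.025 for Itgam, -0.063 to 0.062 for Itgb2, -0.016 to 0.069 for Itgb4, -0.013 to 0.099 for Itgb5, -0.030 to 0.046 for Itgb6, -0.024 to 0.062 for Itgb8 and -0.034 to 0.087 for Sele.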
